A study of Mus musculus with 13 samples.

Results

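Semaphorins, plexins and neuropilins form one ligand and receptor system, and 9 of its genes were followed in macrophages of 3 nervous system sites. The 9 genes were the semaphorins Sema4a, Sema4b and Sema4d, the plexins Plxna1, Plxnb2, Plxnc1 and Plxnd1, and the neuropilins Nrp1 and Nrp2. They were chosen by name, with earlier results of these data known. They are the rows with these symbols, 9 of the 48587 genes in the deposited RNA-seq count table, and all 9 passed the filter on low counts. The study profiled C57BL/6J mouse macrophages by bulk sequencing of total RNA, with 4 libraries of sciatic nerve macrophages, 4 of optic nerve macrophages and 5 of brain microglia. The sciatic nerve is a peripheral nerve, whereas the optic nerve and the brain belong to the central nervous system. The labels give no treatment, age or sex for these libraries and do not say whether replicates came from separate mice, so p-values measure the spread between libraries, which may be technical. The 5 brain columns carry a name of their own in the table and were assigned to brain because brain microglia are the only group of 5.

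Semaphorins are secreted or membrane-bound proteins that signal through plexins, which act inside the cell on small GTPases and so change the cytoskeleton and adhesion. Class 4 semaphorins span the membrane and bind plexins directly, while most of the secreted class 3 semaphorins need a neuropilin beside the plexin. The system was first described in axon guidance and also works between immune cells, where Sema4a and Sema4d are known for acting on lymphocytes, and in blood vessels, where neuropilins also bind vascular endothelial growth factors.

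Library totals were 15.7 to 18.2 M counts in sciatic nerve, 16.5 to 20.4 M in optic nerve and 10.9 to 23.5 M in brain. The 8 macrophage markers checked, such as Csf1r and Adgre1, averaged at least 10 CPM (counts for each 1000000 of the library) in each tissue. Summed microglial markers ranged from 2846 to 3185 CPM in sciatic nerve, from 27317 to 32131 CPM in the optic nerve and from 30458 to 55825 CPM in brain. Brain replicate 1 stood apart: it was the shallowest library, 3.79% of its counts were mitochondrial where the other 4 had 0.410% to 0.868%, and it correlated with its group at a mean r of 0.892 where the other 4 reached 0.923 to 0.937. Member fold changes whose call turned on it are given with and without it. In bulk RNA, fewer cells of a type and less RNA per cell cannot be told apart.

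The leading members of the system differed between sciatic nerve and brain. Sema4a, a semaphorin of immune cells, averaged 392 ± 52.7 CPM in sciatic nerve macrophages, 21.3 ± 4.58 CPM in optic nerve macrophages and 7.54 ± 3.36 CPM in brain microglia (SD, n = 4, 4 and 5). Sema4d, also known as CD100, averaged 31.7 ± 5.71 CPM in sciatic nerve, 225 ± 30.2 CPM in the optic nerve and 344 ± 125 CPM in brain. Among the receptors, Plxnc1, Plxnd1, Plxna1, Nrp1 and Nrp2 were highest in sciatic nerve and Plxnb2 was highest in brain. With edgeR's quasi-likelihood test and Benjamini-Hochberg adjustment over 13246 genes, all 9 members differed between sciatic nerve and brain, 6 higher and 3 lower. Of all genes tested in that comparison 48.4% were called, 24.1% higher and 24.3% lower. Because the members were chosen with earlier results of these data known, a high share called among them may follow from that choice. Between optic nerve and brain 2 members were higher, 4 lower and 3 not called, where 36.9% of all genes were called, 19.6% higher and 17.4% lower. Between sciatic and optic nerve 5 members were higher, 2 lower and 2 not called, where 21.8% of all genes were called, 10.9% higher and 10.9% lower.

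**Figure D1:**
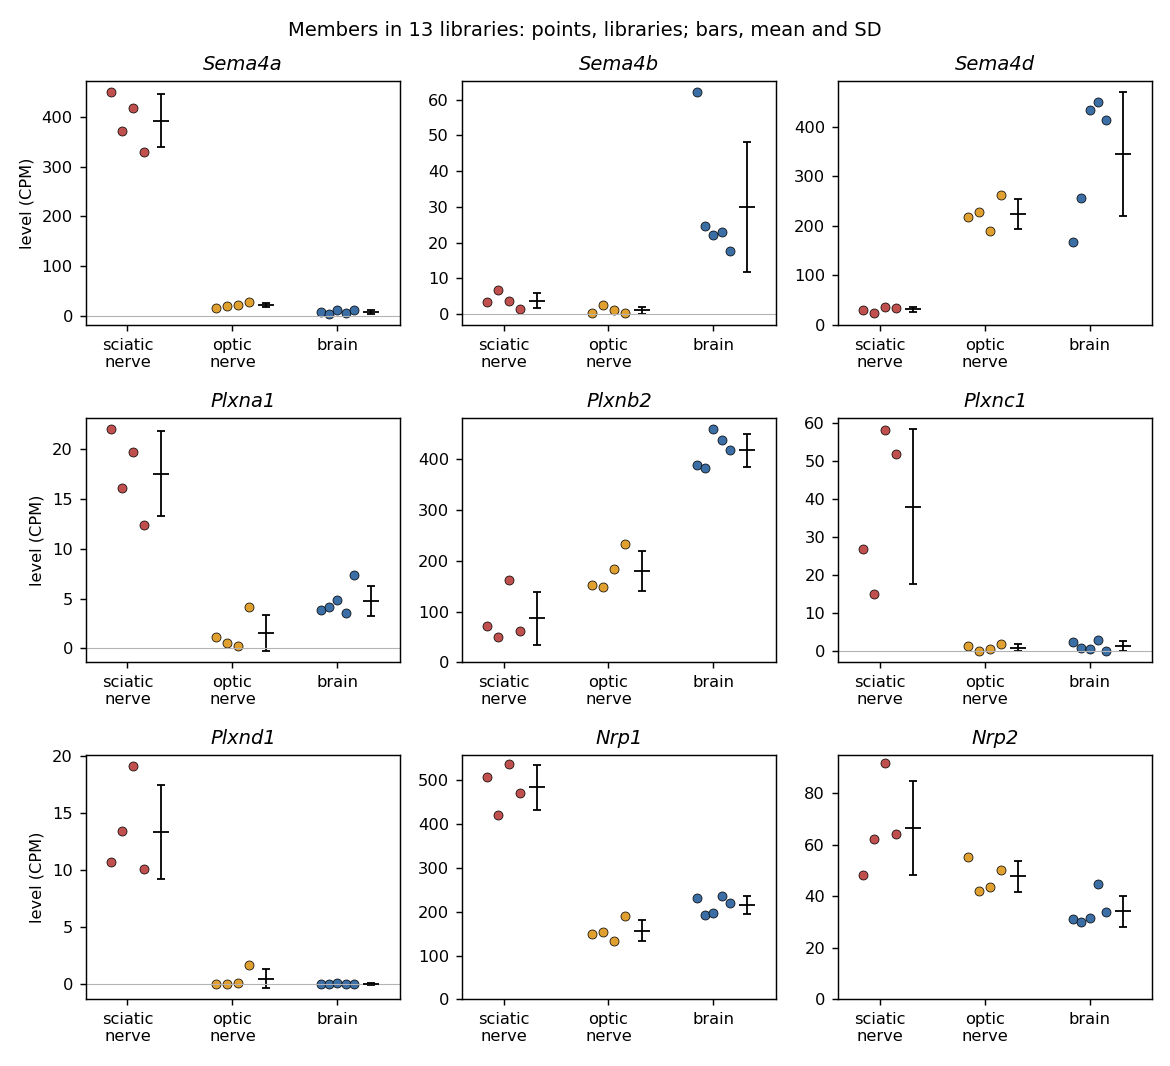
Expression of the 9 members in each library, in CPM on linear axes from 0 (1 panel per gene); points are libraries, horizontal marks are means and bars are SD (n = 4 sciatic nerve, 4 optic nerve, 5 brain). Sema4a lies between 329 and 449.9 CPM in sciatic nerve and at or under 27.5 CPM elsewhere, while Sema4d lies at or under 36.1 CPM in sciatic nerve and at or above 168 CPM elsewhere.

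The ligands were described first. Sema4a (chr3:88435959-88461182, minus strand, mm10) encodes a class 4 semaphorin that costimulates T cells and binds plexin D1 and plexins of the B family. Its level was 449.9, 372, 418 and 329 CPM in the sciatic nerve libraries, 16.5, 19.9, 21.4 and 27.5 CPM in the optic nerve libraries, and 7.03, 3.35, 11.2, 5.49 and 10.6 CPM in the brain libraries. The 3 tissues did not overlap, and sciatic nerve was far above both others. The log2 fold change was 5.70 (SE 0.33, adjusted p = 1.93e-09) for sciatic nerve over brain, 1.50 (SE 0.29, adjusted p = 9.55e-04) for optic nerve over brain and 4.20 (SE 0.33, adjusted p = 2.49e-07) for sciatic over optic nerve. On the linear scale these are 52.1-fold, 2.83-fold and 18.4-fold.

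Sema4d (chr13:51685529-51793747, minus strand) encodes the ligand of plexins B1 and B2 and of Cd72 on immune cells. It gave 31.4, 23.7, 36.1 and 35.5 CPM in the sciatic nerve libraries, 218, 228, 190.0 and 263 CPM in the optic nerve libraries, and 168, 256, 433, 450.3 and 413 CPM in the brain libraries. Every sciatic nerve library lay below every other library, whereas brain replicate 1 lay below the optic nerve range and brain replicate 2 within it. Sciatic nerve was lower than brain by a log2 fold change of -3.44 (SE 0.28, adjusted p = 1.26e-07) and lower than optic nerve by -2.83 (SE 0.28, adjusted p = 2.91e-06). For optic nerve over brain the log2 fold change of -0.61 (SE 0.25, adjusted p = 0.0690) was not called. That comparison turned on 2 brain libraries and on the method. Sema4d passed at -0.79 (adjusted p = 0.00418) without brain replicate 1, at -0.71 (adjusted p = 0.0472) without replicate 2 and at -0.93 (adjusted p = 2.91e-04) without both. With all libraries kept, it passed at -0.63 (adjusted p = 0.0357) with DESeq2 and at -0.85 (adjusted p = 0.0134) with scaling by library size only.

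Sema4b (chr7:80186841-80226527, plus strand) encodes another membrane-spanning class 4 semaphorin. Its level was 3.33, 6.57, 3.53 and 1.47 CPM in the sciatic nerve libraries, 0.252, 2.42, 1.23 and 0.178 CPM in the optic nerve libraries, and 62.1, 24.6, 22.1, 22.8 and 17.5 CPM in the brain libraries. All brain libraries lay above all nerve libraries, and the nerve libraries overlapped each other. Sema4b fell by 3.00 on the log2 scale in sciatic nerve relative to brain (SE 0.67, adjusted p = 0.00187) and by 4.86 in optic nerve relative to brain (SE 0.75, adjusted p = 1.55e-04). Without optic nerve replicate 2 the optic nerve value was -5.72. The difference between sciatic and optic nerve, a log2 fold change of 1.86 (SE 0.70, adjusted p = 0.0707), was not called; it passed at 2.73 (adjusted p = 0.0167) without optic nerve replicate 2, at 2.00 (adjusted p = 0.0491) with the replicate number as a block and at 1.91 (adjusted p = 0.0226) with DESeq2. The highest Sema4b value, in brain replicate 1, came with the highest summed level of 8 neuronal markers, 29.1 CPM against 1.59 to 7.94 CPM in the other brain libraries, and the part of neuronal RNA in the result was not tested. Sema4b was also above every nerve library in the other 4 brain libraries.

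The receptors fell into 2 patterns. Plxnb2 (chr15:89155549-89180788, minus strand), a receptor of Sema4c and Sema4d, followed Sema4d in being lowest in sciatic nerve. It gave 71.4, 49.7, 163 and 62.0 CPM in the sciatic nerve libraries, 152, 148, 183 and 234 CPM in the optic nerve libraries, and 389, 382, 459.6, 437 and 419 CPM in the brain libraries. Brain did not overlap with either nerve, while sciatic nerve replicate 3 reached into the optic nerve range. On the log2 scale the difference was -2.27 (SE 0.30, adjusted p = 1.72e-05) for sciatic nerve over brain, -1.22 (SE 0.28, adjusted p = 0.00402) for optic nerve over brain and -1.05 (SE 0.30, adjusted p = 0.0181) for sciatic over optic nerve. The last call was lost without sciatic nerve replicate 1 (-0.97, adjusted p = 0.0566), 2 (-0.86, adjusted p = 0.0550) or 4 (-0.92, adjusted p = 0.0625), or without optic nerve replicate 4 (-0.90, adjusted p = 0.0592).

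Plxnd1 (chr6:115954811-115995005, minus strand), a receptor of Sema3e best known from developing blood vessels that also binds Sema4a, was found almost only in sciatic nerve. Its CPM values were 10.7, 13.4, 19.1 and 10.1 in the sciatic nerve libraries, 0, 0.0538, 0.167 and 1.72 in the optic nerve libraries, and 0, 0, 0.140, 0 and 0 in the brain libraries. These came from 775 counts in sciatic nerve, 33 in optic nerve, of which 29 were in replicate 4, and 3 in brain, all in replicate 3. Because 3 counts over the brain libraries correspond to 0.0265 CPM, the comparison with brain is given as a ratio of summed counts with its 95% counting interval. Sciatic nerve was 498-fold above brain in summed counts (interval 170 to 2422), and the edgeR fit called the difference (adjusted p = 9.35e-05). The log2 fold change of sciatic over optic nerve was 4.78 (SE 1.18, adjusted p = 0.00805), or 7.40 without optic nerve replicate 4. Optic nerve was 17.0-fold above brain in summed counts (interval 5.33 to 86.5). The edgeR fit called this difference (adjusted p = 0.0284), a call that optic nerve replicate 4 decided: without it the adjusted p was 0.453. The intervals cover counting error only, not the spread between libraries. The call was also lost without brain replicate 2 (adjusted p = 0.0588), 4 (0.0605) or 5 (0.0589), and with the replicate block (adjusted p = 0.159). Optic nerve replicate 4 also had the highest summed level of 7 monocyte markers in its group, 289.6 CPM against 120 to 158 CPM in the other optic nerve libraries. The part of other cells in the Plxnd1 value of that library was not tested. The 8 endothelial markers summed to 0.623 to 7.26 CPM in sciatic nerve and 12.7 to 19.4 CPM in the optic nerve. In brain they summed to 17.5 to 48.6 CPM, where 1 of them averaged at least 10 CPM, while none did in the nerves. Cldn5 was at 0 in every library, Emcn and Esam in the optic nerve and brain only, and Tek in the optic nerve only. The part of endothelial RNA in the Plxnd1 values was not tested.

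Plxnc1 (chr10:94790866-94944835, minus strand) encodes the receptor of Sema7a, a semaphorin anchored to the membrane of immune and other cells. Its CPM values were 26.8, 15.2, 58.0 and 51.9 in the sciatic nerve libraries, 1.36, 0.0538, 0.447 and 1.89 in the optic nerve libraries, and 2.42, 0.712, 0.513, 2.99 and 0 in the brain libraries. All sciatic nerve libraries were above all others, although they spanned a wide range among themselves, and optic nerve and brain overlapped. The log2 fold change was 4.85 (SE 0.94, adjusted p = 5.98e-04) for sciatic nerve over brain and 5.33 (SE 1.06, adjusted p = 0.00176) for sciatic over optic nerve. Without brain replicate 4 the value for sciatic nerve over brain was 5.46. Optic nerve over brain was -0.48 (SE 0.92, adjusted p = 0.711) and not called, and its sign turned to 0.13 without brain replicate 4.

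Plxna1 (chr6:89316314-89362620, minus strand) encodes a receptor that pairs with neuropilins for class 3 semaphorins and with Trem2 and Tyrobp for Sema6d in myeloid cells. It gave 22.0, 16.1, 19.7 and 12.3 CPM in the sciatic nerve libraries, 1.16, 0.538, 0.223 and 4.14 CPM in the optic nerve libraries, and 3.85, 4.16, 4.85, 3.60 and 7.35 CPM in the brain libraries. Sciatic nerve lay above both other tissues without overlap, and optic nerve replicate 4 lay within the brain range. Plxna1 had a log2 fold change of 1.88 (SE 0.59, adjusted p = 0.0160) for sciatic nerve over brain, a call lost with scaling by library size only (1.44, adjusted p = 0.0565) and without brain replicates 1 and 2 (1.73, adjusted p = 0.0568). For sciatic over optic nerve it was 3.53 (SE 0.68, adjusted p = 0.00142), or 4.75 without optic nerve replicate 4. Optic nerve was lower than brain by -1.66 (SE 0.62, adjusted p = 0.0488), just inside the threshold. That call was lost in 11 of the 13 fits that leave out 1 library, all but those without optic nerve replicate 4 (-2.87, adjusted p = 9.92e-04) or brain replicate 1, and with the replicate block (-1.84, adjusted p = 0.0820). It was also lost without the filter on low counts (adjusted p = 0.0548), with only the 2 tissues compared (0.106) and without brain replicates 1 and 2 (0.0549). Plxna1 shares 970 bp of exon sequence with the antisense gene Gm26811, which had 1 count in all libraries together. Whether strand was used in counting is not known, so this count cannot show how many reads fell in the shared part.

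The promoters of Plxnd1 and Plxnc1 are shown because these 2 members were nearly confined to sciatic nerve macrophages, at 1.89 CPM or less in every optic nerve library and 2.99 CPM or less in every brain library. Each sequence is the RefSeq window (GRCm38.p6) of 250 bases before the annotated start, 5′ to 3′ on the gene's strand, minus in both cases, at chr6:115995006-115995255 for Plxnd1 and chr10:94944846-94945095 for Plxnc1. Capitals mark GAGGAA, a core of binding sites of the macrophage factor PU.1, and GGGCGG, the GC box of SP1, on either strand.
Plxnd1: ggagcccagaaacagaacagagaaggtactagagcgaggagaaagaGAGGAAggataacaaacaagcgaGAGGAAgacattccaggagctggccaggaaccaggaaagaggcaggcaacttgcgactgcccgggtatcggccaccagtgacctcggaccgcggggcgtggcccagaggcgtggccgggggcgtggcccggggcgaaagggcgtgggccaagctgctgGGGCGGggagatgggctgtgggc
Plxnc1: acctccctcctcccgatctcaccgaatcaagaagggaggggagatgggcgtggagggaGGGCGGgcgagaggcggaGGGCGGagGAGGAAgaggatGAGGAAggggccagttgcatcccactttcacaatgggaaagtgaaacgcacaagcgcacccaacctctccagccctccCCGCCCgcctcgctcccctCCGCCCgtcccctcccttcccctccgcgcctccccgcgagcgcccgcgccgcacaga
Both windows were rich in G and C, at 64.8% for Plxnd1 and 68.8% for Plxnc1. Plxnd1 held GAGGAA at 204 and 181 bases before the start and GGGCGG at 23 bases. Plxnc1 held GAGGAA at 166 and 154 bases and GGGCGG at 192, 174, 76 and 57 bases, the last 2 on the opposite strand. TGANTCA, the site of AP-1, was in neither window. Searched on both strands, GAGGAA was in 23.3%, GGGCGG in 32.7% and TGANTCA in 6.75% of the 32851 RefSeq windows of this length. The table held 15 windows for 8 members, with GAGGAA in 7, GGGCGG in 12 and TGANTCA in 1, and 2 of the Sema4a windows overlap.

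The neuropilins were expressed in all 3 tissues. Nrp1 (chr8:128358604-128503363, plus strand), the co-receptor of Sema3a and of vascular endothelial growth factor A, gave 507, 419, 536 and 469.8 CPM in the sciatic nerve libraries, 149, 154, 133 and 189.7 CPM in the optic nerve libraries, and 232, 193, 197, 236 and 220.1 CPM in the brain libraries. None of the 3 tissues overlapped, with sciatic nerve highest and optic nerve lowest. The log2 fold change was 1.16 (SE 0.14, adjusted p = 4.99e-06) for sciatic nerve over brain and 1.63 (SE 0.15, adjusted p = 9.59e-07) for sciatic over optic nerve. Optic nerve fell by 0.46 on the log2 scale relative to brain (SE 0.14, adjusted p = 0.0159), a call lost without optic nerve replicate 2 (adjusted p = 0.0508) or 3 (adjusted p = 0.0633) and without the filter on low counts (adjusted p = 0.0538).

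Nrp2 (chr1:62703285-62818695, plus strand), the co-receptor of Sema3f and of vascular endothelial growth factor C, had the smallest ratio of highest to lowest tissue mean among the members, 1.94. It gave 48.3, 62.3, 91.6 and 64.3 CPM in the sciatic nerve libraries, 55.3, 42.0, 43.6 and 50.2 CPM in the optic nerve libraries, and 31.4, 30.1, 31.5, 44.8 and 33.8 CPM in the brain libraries. Sciatic nerve was above brain without overlap, and the optic nerve libraries overlapped with both. Its log2 fold change was 0.96 (SE 0.20, adjusted p = 9.54e-04) for sciatic nerve over brain. It was 0.48 (SE 0.20, adjusted p = 0.0688) for optic nerve over brain and 0.48 (SE 0.21, adjusted p = 0.118) for sciatic over optic nerve, and neither was called. Nrp2 passed for optic nerve over brain without brain replicate 4 (0.59, adjusted p = 0.0339) or sciatic nerve replicate 3 (adjusted p = 0.0471). The 8 fibroblast markers, of which 3 averaged at least 10 CPM in sciatic nerve and Col3a1, Lum and Mfap5 were at 0 in brain, summed to 197 to 415 CPM in sciatic nerve, 13 to 41.3 CPM in the optic nerve and 2.27 to 7.65 CPM in brain. Their part in the higher values of Nrp1, Nrp2, Plxnc1, Plxnd1 and Plxna1 in sciatic nerve was not tested. The 7 monocyte markers summed to 4760 to 6683 CPM in sciatic nerve, most of it F13a1, to 120 to 289.6 CPM in the optic nerve and to 2.66 to 10.2 CPM in brain. The 8 dendritic cell markers summed to 384 to 481 CPM in sciatic nerve, most of it Cd209a, to 40.2 to 81.2 CPM in the optic nerve and to 18.8 to 35.4 CPM in brain. The 8 Schwann cell markers summed to 1657 to 2044 CPM in sciatic nerve. In the optic nerve they summed to 720 to 935 CPM and in brain to 327 to 752 CPM. Of these markers, Pmp22 averaged 1107 CPM in sciatic nerve, 629 CPM in the optic nerve and 594 CPM in brain. Egr2, which is also an immediate early gene, averaged 676, 198 and 2.06 CPM. Sox10 was at 0 in sciatic nerve only, Prx at 0 in the optic nerve and brain, and Cdh19 at 0 in brain. The sums of monocyte, dendritic cell and Schwann cell markers, Pmp22 and Egr2 were highest in sciatic nerve, as were Sema4a and these receptors. Their part in the members' values was not tested. Immediate early genes, which respond to handling of cells among other signals, summed to 33413 to 39062 CPM in sciatic nerve, 17233 to 21557 CPM in the optic nerve and 800.0 to 1061 CPM in brain, and their part in the members' differences was not tested either.

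**Figure D2:**
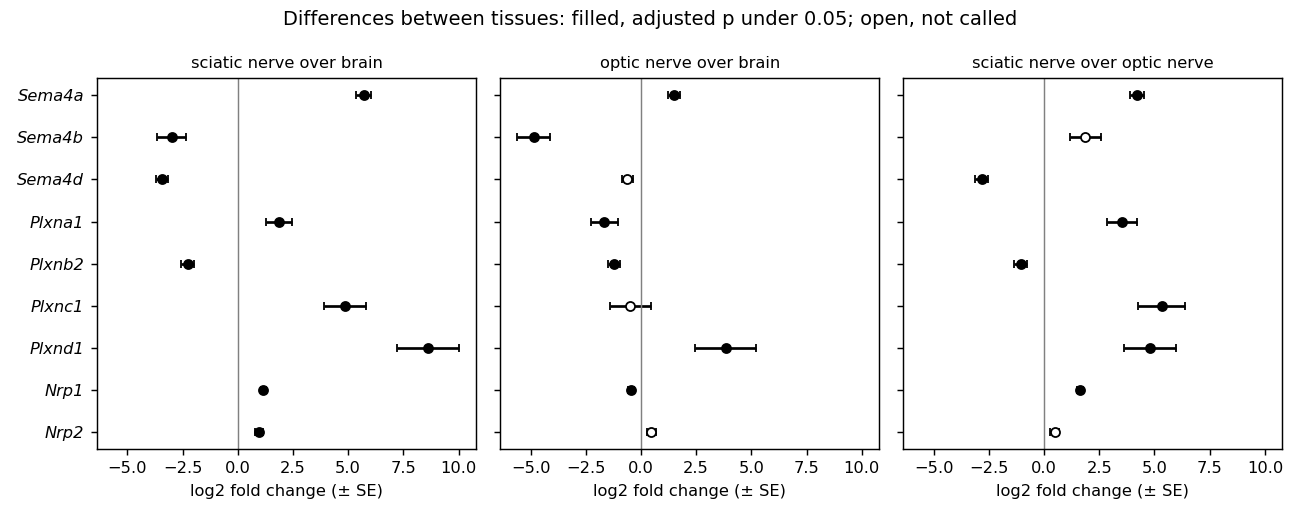
Log2 fold change of each member in the 3 comparisons, with SE bars from edgeR's quasi-likelihood fit of the 13 libraries; filled points passed an adjusted p of 0.05 and open points did not. Sema4a is far to the right in sciatic nerve over brain (5.70) and sciatic over optic nerve (4.20), Sema4d and Plxnb2 lie to the left in all 3 comparisons, and the Plxnd1 values against brain rest on 3 brain counts and depend on the fit's prior.

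The 3 comparisons share libraries, so their values are given side by side. The members were chosen with earlier results of these data known, so their medians and counts without overlap may reflect that choice. The median log2 fold change of the 9 members was 1.16 for sciatic nerve over brain, where the median of all genes was -0.09. It was -0.48 for optic nerve over brain, against -0.08 for all genes, and 1.86 for sciatic over optic nerve, against 0.00. Sema4a and Plxnd1 were called higher, and Sema4b and Plxnb2 lower, in both nerves relative to brain, although the Plxnd1 call in optic nerve rested on optic nerve replicate 4. Plxna1 and Nrp1 were called higher in sciatic nerve and lower in optic nerve relative to brain, the Plxna1 value in optic nerve with the limits given above. Libraries did not overlap for 9 of 9 members between sciatic nerve and brain (41.3% of all genes tested), for 4 members between optic nerve and brain (31.8%) and for 6 between sciatic and optic nerve (29.9%).

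Levels of different genes were compared per kilobase of exon (CPM per kb). In sciatic nerve the order was Sema4a at 72.6 ± 9.76, Nrp1 at 49.4 ± 5.17, Plxnb2 at 11.2 ± 6.68, Nrp2 at 5.63 ± 1.53, Plxnc1 at 4.55 ± 2.44 and Sema4d at 4.13 ± 0.744 CPM per kb (SD, n = 4). Plxna1, Plxnd1 and Sema4b followed at 1.94, 1.83 and 0.660 CPM per kb. Sema4a and Nrp1 did not overlap each other or the rest, whereas the neighbours from Plxnb2 to Sema4d overlapped. In optic nerve the order was led by Sema4d at 29.3 ± 3.94, Plxnb2 at 23.2 ± 5.10 and Nrp1 at 16 ± 2.44 CPM per kb, each overlapping the next. Nrp2 at 4.03 and Sema4a at 3.94 CPM per kb also overlapped, and Sema4b, Plxna1, Plxnc1 and Plxnd1 lay at 0.181 CPM per kb or less. In brain Plxnb2 at 54.0 ± 4.22, Sema4d at 44.8 ± 16.3 and Nrp1 at 22.0 ± 2.02 CPM per kb came first (SD, n = 5), each overlapping the next, then Sema4b at 5.28, Nrp2 at 2.90, Sema4a at 1.39, Plxna1 at 0.526 and Plxnc1 at 0.159 CPM per kb. Without brain replicate 1 this order was the same, but Sema4d at 50.5 ± 11.7 CPM per kb no longer overlapped Nrp1 at 21.6 ± 2.06, and Sema4b was at 3.86 ± 0.534 CPM per kb (SD, n = 4). Coding length in place of exon length changed the order in each tissue. In sciatic nerve Nrp1 came before Sema4a and the 2 overlapped, Nrp2 came before Plxnb2, and Sema4d came before Plxnc1. In optic nerve Nrp1 at 56.5 came before Plxnb2 at 32.4 CPM per coding kb, without overlap. In brain Sema4d led at 110, then Nrp1 at 77.9 and Plxnb2 at 75.5 CPM per coding kb, each overlapping the next.

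Among the 20 semaphorins, Sema4a led in sciatic nerve and Sema4d in optic nerve and brain, while Plxnb2 led the 9 plexins in all 3 tissues. Sema4a made up 81.6% ± 2.73 of summed semaphorin CPM per kb in sciatic nerve, 8.80% ± 0.988 in optic nerve and 2.20% ± 0.934 in brain (SD, n = 4, 4 and 5). Sema4d made up 4.69% ± 1.05 in sciatic nerve, 65.8% ± 6.03 in optic nerve and 67.0% ± 7.23 in brain. The ratio of Sema4a to Sema4d per kb was 18.1 ± 4.06 in sciatic nerve, 0.135 ± 0.0237 in optic nerve and 0.0337 ± 0.0171 in brain. Plxnb2 made up 45.1% ± 8.07 of summed plexin CPM per kb in sciatic nerve, 86.5% ± 1.60 in optic nerve and 88.7% ± 2.59 in brain. In sciatic nerve the other shares were 18.9% ± 8.07 for Plxnc1, 12% ± 3.41 for Plxna4, 8.82% ± 3.01 for Plxna1 and 8.08% ± 2.28 for Plxnd1. The summed plexin level was 23.6 ± 9.29 CPM per kb in sciatic nerve, 26.8 ± 5.61 in optic nerve and 60.9 ± 3.97 in brain. The ratio of Nrp1 to Nrp2 per kb was 9.20 ± 2.46 in sciatic nerve, 3.99 ± 0.616 in optic nerve and 7.71 ± 0.926 in brain.

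**Figure D3:**
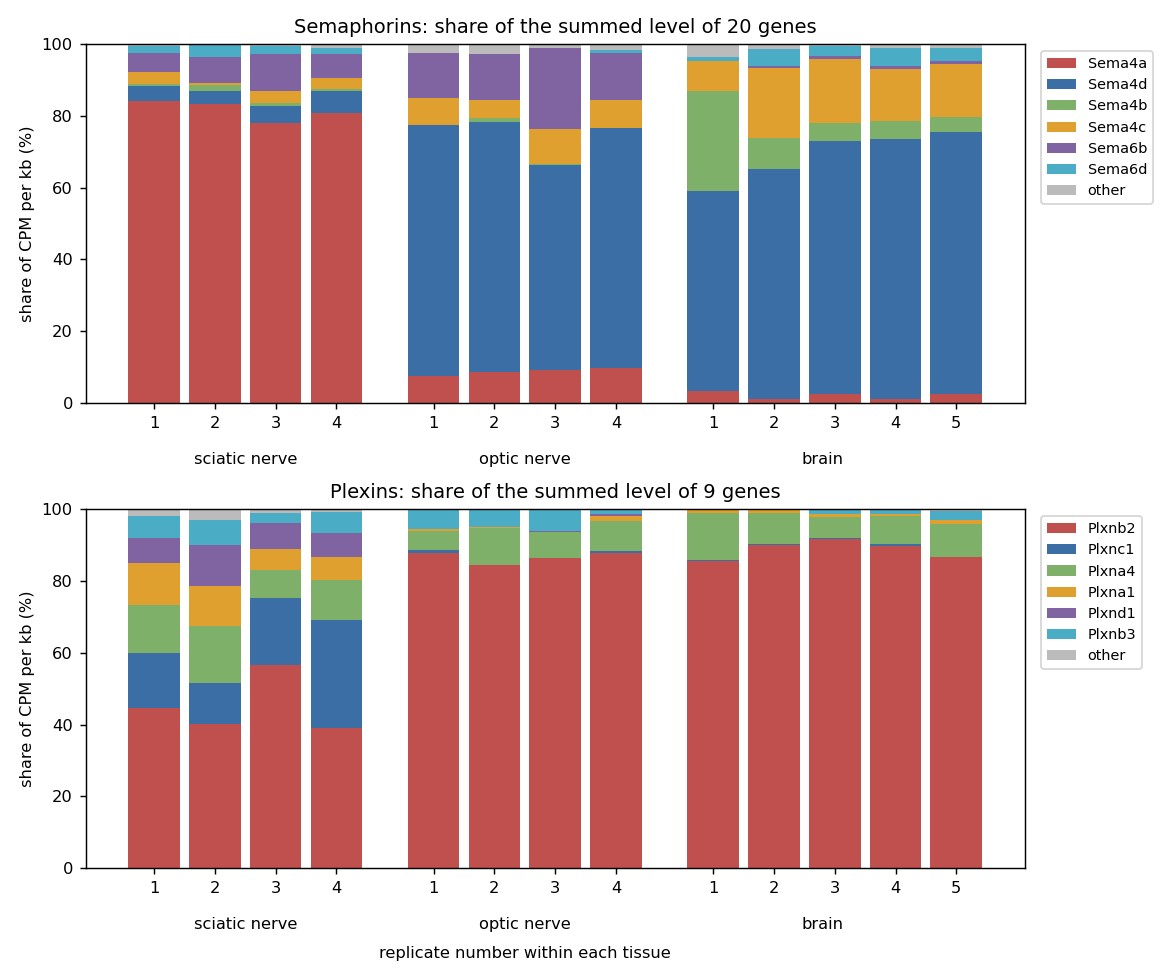
Share of each semaphorin (top) and plexin (bottom) in the summed CPM per exon kilobase of its family, in percent, stacked for each library. Sema4a fills most of each sciatic nerve bar (mean 81.6%) and Sema4d most of each optic nerve and brain bar (means 65.8% and 67.0%), and Plxnb2 leads the plexins in all 3 tissues (means 45.1%, 86.5% and 88.7%).

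Of the other 22 semaphorin, plexin and neuropilin genes, 13 were too low to test, with no tissue mean above 0.482 CPM, and 4 averaged at least 10 CPM in a tissue. The low genes included Sema7a, Sema3a, Sema3e and Sema3f, which are ligands of Plxnc1, Nrp1, Plxnd1 and Nrp2 in that order. Plxnd1 also binds Sema4a, and the neuropilins also bind vascular endothelial growth factors. Sema6b, a ligand of plexin A4, averaged 26.3 ± 9.60 CPM in sciatic nerve, 26.7 ± 8.55 CPM in the optic nerve and 1.96 ± 1.24 CPM in brain. It was higher than brain by a log2 fold change of 3.71 (SE 0.59, adjusted p = 1.17e-04) in sciatic nerve and 3.74 (SE 0.59, adjusted p = 2.09e-04) in optic nerve. Sema4c, a ligand of plexin B2, averaged 10.9 ± 6.04, 15.4 ± 4.19 and 46.5 ± 18.8 CPM in sciatic nerve, optic nerve and brain, and was lower than brain in sciatic nerve (-2.09, SE 0.48, adjusted p = 0.00237) and in optic nerve (-1.60, SE 0.47, adjusted p = 0.0158). The call in optic nerve was lost without optic nerve replicate 2 (-1.42, adjusted p = 0.0540), and the brain libraries overlapped both nerves through brain replicate 1 at 15.3 CPM. Sema6d, the ligand of plexin A1, averaged 21.5 ± 6.64 CPM in sciatic nerve, 1.39 ± 2.44 CPM in the optic nerve and 24.3 ± 13.8 CPM in brain. The optic nerve value came mostly from replicate 4, at 5.03 CPM against 0, 0.538 and 0 CPM in the others, whose mean was 0.179 CPM, and replicate 4 lay above brain replicate 1 at 3.93 CPM. Optic nerve was lower than brain in Sema6d (-4.15, SE 1.07, adjusted p = 0.00750), or by -7.04 without optic nerve replicate 4. Sciatic nerve was higher than optic nerve (3.97, SE 1.08, adjusted p = 0.0155), at 6.86 without optic nerve replicate 4 but not called without optic nerve replicate 2 (3.68, adjusted p = 0.0508), and sciatic nerve over brain was not called (-0.18, SE 0.89, adjusted p = 0.884). Plxna4, a receptor of class 3 and class 6 semaphorins, averaged 36.9 ± 3.73, 29.5 ± 10.1 and 75.5 ± 20.7 CPM in sciatic nerve, optic nerve and brain, lower than brain in sciatic nerve (-1.03, SE 0.25, adjusted p = 0.00335) and in optic nerve (-1.35, SE 0.25, adjusted p = 8.41e-04).

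**Figure D4:**
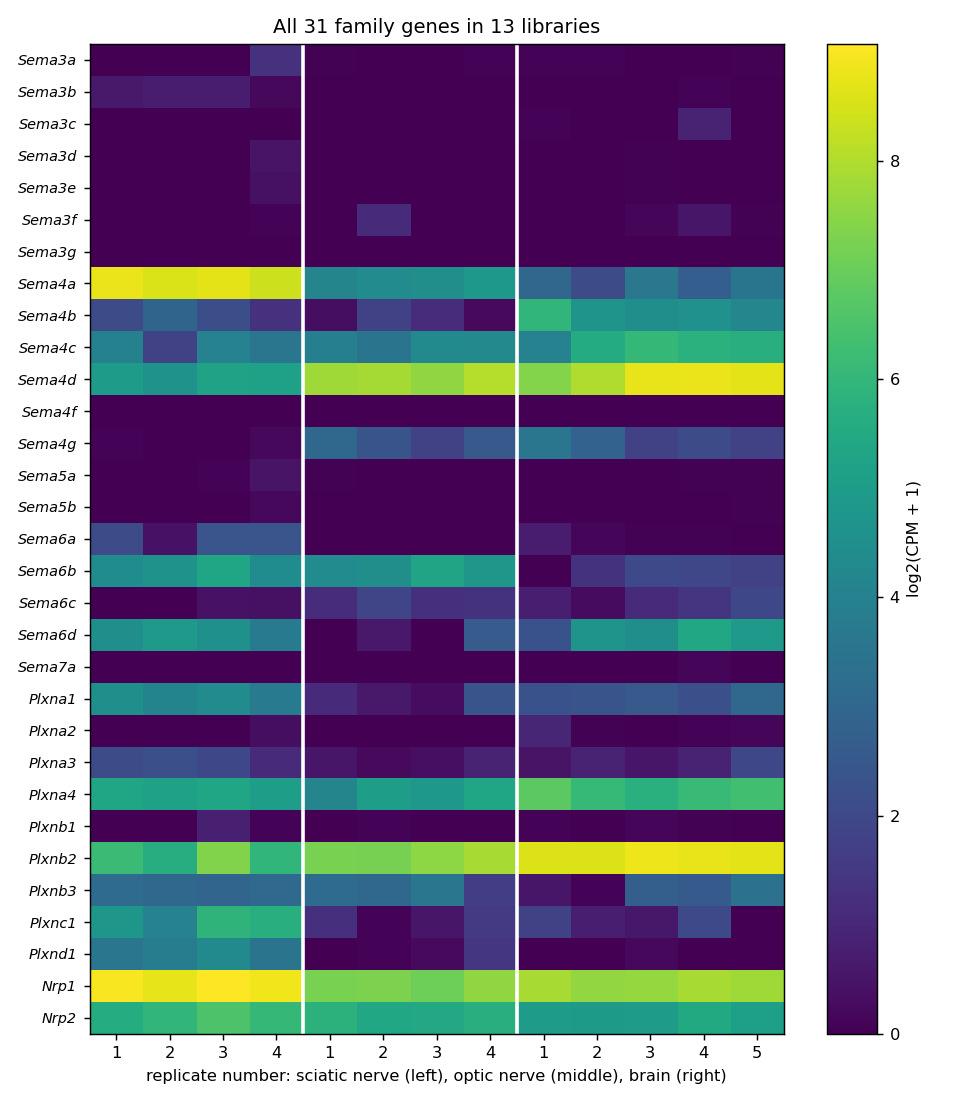
Log2(CPM + 1) of all 31 semaphorin, plexin and neuropilin genes (rows) in the 13 libraries (columns, grouped as sciatic nerve, optic nerve and brain). The 9 members and Plxna4, Sema4c, Sema6b and Sema6d carry most of the signal, and the 13 genes not tested average at most 0.482 CPM in any tissue.

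Across the whole family, 9 of the 20 semaphorins and 9 of the 11 plexins and neuropilins could be tested. Relative to brain, 3 semaphorins were higher and 5 lower in sciatic nerve, and 2 were higher and 3 lower in optic nerve. Relative to brain, 5 plexins and neuropilins were higher and 2 lower in sciatic nerve, and 1 was higher and 4 lower in optic nerve. Between sciatic and optic nerve, 3 semaphorins were higher and 2 lower, and 5 plexins and neuropilins were higher and 1 lower. The shares called were 88.9%, 55.6% and 55.6% of the semaphorins and 77.8%, 55.6% and 66.7% of the plexins and neuropilins for sciatic nerve over brain, optic nerve over brain and sciatic over optic nerve, where 48.4%, 36.9% and 21.8% of all genes were called. These lists hold the 9 members, which were chosen with earlier results of these data known.

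Genes listed as possible partners or effectors of the system were counted in 2 lists. A link to the members was not tested for any of them, and none is given here for Havcr2 and Lilrb4a. Of 22 co-receptors and partners, 14 were tested: 5 rose and 3 fell in sciatic nerve relative to brain (median log2 fold change 0.19), 6 rose and the other 8 were not called in optic nerve relative to brain (median 0.67), and 1 rose and 3 fell in sciatic relative to optic nerve (median -0.55). The shares called were 57.1%, 42.9% and 28.6%, against 48.4%, 36.9% and 21.8% of all genes tested. Cd72, the immune receptor of Sema4d, averaged 80.8 ± 22.3 CPM in sciatic nerve, 90.3 ± 16.6 CPM in the optic nerve and 7.79 ± 2.38 CPM in brain. It was higher than brain by a log2 fold change of 3.36 (SE 0.27, adjusted p = 7.77e-08) in sciatic nerve and 3.53 (SE 0.27, adjusted p = 1.08e-07) in optic nerve, so that the Sema4d receptors Plxnb2 and Cd72 differed in opposite directions. Trem2, the partner of plexin A1, averaged 187 ± 39.1 CPM in sciatic nerve, 1563 ± 212 CPM in the optic nerve and 1726 ± 392 CPM in brain, and sciatic nerve was lower than optic nerve by a log2 fold change of -3.06 (SE 0.21, adjusted p = 5.49e-08). Havcr2, an inhibitory receptor of the Tim family, averaged 7.26, 310.0 and 305 CPM in sciatic nerve, optic nerve and brain, with a log2 fold change of -5.39 for sciatic nerve over brain and -5.41 for sciatic over optic nerve. Lilrb4a, an inhibitory receptor of myeloid cells, averaged 672, 118 and 3.31 CPM, with a log2 fold change of 7.71 for sciatic nerve over brain, 5.20 for optic nerve over brain and 2.51 for sciatic over optic nerve. Gipc1, an adaptor that binds the tail of Nrp1, averaged 67.8, 62.2 and 36.1 CPM and was higher in optic nerve than in brain by 0.78 (SE 0.16, adjusted p = 0.00199).

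Of 38 intracellular effectors, 33 were tested: 12 rose and 6 fell in sciatic nerve relative to brain, 10 rose and 2 fell in optic nerve against brain, and 5 rose and 3 fell in sciatic relative to optic nerve, with median log2 fold changes of 0.08, 0.08 and 0.09. The shares called were 54.5%, 36.4% and 24.2%, near the 48.4%, 36.9% and 21.8% of all genes tested. Rnd1 and Rnd3 encode small GTPases that bind the inner part of plexins. Rnd3 averaged 313 ± 11.7 CPM in sciatic nerve and 4.55 ± 2.30 CPM in the optic nerve, and brain held 3 counts. The log2 fold change of Rnd3 was 6.11 (SE 0.40, adjusted p = 3.31e-08) for sciatic over optic nerve, and the ratio of summed counts to brain was 11804 in sciatic nerve (95% counting interval 4038 to 57243) and 169.8 in optic nerve (57.6 to 828). Rnd1 averaged 10.6 ± 3.52 CPM in sciatic nerve, 16.6 ± 6.88 CPM in the optic nerve and 0.0356 ± 0.0606 CPM in brain. Rras and Rap1b encode GTPases on which the inner domain of plexins acts. Rras was higher in sciatic nerve than in brain, at 68.1 and 14.9 CPM (log2 fold change 2.19, SE 0.18, adjusted p = 1.01e-07), and Rap1b was higher in optic nerve than in brain, at 2144 and 777 CPM (1.47, SE 0.17, adjusted p = 1.28e-05). Mical1, an actin-oxidising enzyme that acts after plexin A receptors, was lower in sciatic than in optic nerve, at 6.92 and 23.0 CPM (-1.73, SE 0.33, adjusted p = 0.00131). Rras2, a relative of Rras, was also lower, at 15.7 and 36.4 CPM (-1.21, SE 0.27, adjusted p = 0.00471).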

How the data were processed

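Whole-number counts per gene for 13 bulk RNA-seq libraries were taken as deposited. Per the submitters' processing notes, the authors used STAR, the mm10 build and featureCounts 1.5.1 to make these counts. Not given in the sources used here are the STAR version, the annotation, whether strand was used and how multimapping reads were treated. No column of per-sample values was left out. Genes were kept with filterByExpr and scaled by TMM, and 13246 were tested in 1 edgeR quasi-likelihood fit of all libraries by tissue (edgeR 4.0.16, limma 3.58.1, R 4.3.3). P-values were adjusted by Benjamini-Hochberg over all genes tested, and a call is an adjusted p under 0.05. CPM values use TMM-scaled library sizes. Levels per kilobase use the union of exons in GENCODE vM21 on mm10, which held 95.6% of the symbols.

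The members and the gene lists were chosen with earlier results of these data known. Named besides the members were other family genes with a mean of at least 10 CPM in a tissue, the 3 called genes per list and comparison with the largest fold change among those with that level, and the 2 genes most correlated with each member. Alternatives were other scaling (RLE, library size only), other filters, fits of only the tissues compared, DESeq2 1.42.0, the replicate block, each library left out, brain replicates 1 and 2 left out, and coding length. The scripts were tested on simulated data. Deviations of same-numbered libraries correlated between -0.08 and 0.08 in 12 pairs, so no pairing by replicate number was seen. Such values cannot show whether same-numbered libraries share an origin, and the labels describe no shared batch. Intervals of count ratios and the floor of 3 counts over a group cover counting error only. Microarray and single-cell data of the study were not analysed here.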

Additional observations from a re-analysis of the deposited data

Results flagged for a closer look

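Of 27 groups of libraries (9 members in 3 tissues), 4 held a library far from the rest of its group. The nominal rate of this check is 1 group in 20, but it need not hold for CPM values near 0. The Plxnd1 groups among the 4 are such groups, so the count of flags cannot show an excess. Sema4b was at 62.1 CPM in brain replicate 1, against 17.5 to 24.6 CPM in the other brain libraries. Nrp2 was at 44.8 CPM in brain replicate 4, against 30.1 to 33.8 CPM in the other brain libraries. Plxnd1 was at 1.72 CPM in optic nerve replicate 4, against 0 to 0.167 CPM in the other optic nerve libraries. Plxnd1 was also at 0.140 CPM in brain replicate 3, from 3 counts, and at 0 in the other brain libraries.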

How the results depend on the processing

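Of 566 member fold changes under alternatives, 525 kept their direction and side of the threshold, 30 lost a call, 10 gained one and 1 turned sign (Plxnc1, optic nerve over brain, 0.13 without brain replicate 4, and -1.05 to 0.13 over all libraries left out in turn). All 9 calls between sciatic nerve and brain held in each fit that leaves out 1 library. Members higher in optic nerve than brain numbered 2, but 1 with the replicate block and 1 without brain replicates 1 and 2 together. When 1 library was left out they numbered 1 to 3. With only the 2 tissues compared they numbered 1, as Plxnd1 was not tested in that fit. Members lower in optic nerve than brain numbered 4, but 2 without the filter on low counts and 2 to 5 with 1 library left out. Members lower in sciatic than optic nerve numbered 2, and 1 to 2 with 1 library left out. Over the 4 family and pathway lists, genes lower in optic nerve than brain numbered 9, but 14 with library size only, 5 without optic nerve replicate 2 and 5 to 11 with 1 library left out. Genes of these lists lower in sciatic than optic nerve numbered 9, but 15 with library size only, 14 without brain replicate 1, 14 without brain replicates 1 and 2 together, and 7 to 14 with 1 library left out. Scaling by library size only moved the median log2 fold change of all genes to -0.53, -0.33 and -0.19 in the 3 comparisons. The split of calls became 2242 higher and 4942 lower for sciatic nerve over brain, against 3191 and 3219 with TMM. It became 1910 and 3258 for optic nerve over brain, against 2590 and 2303, and 1151 and 2063 for sciatic over optic nerve, against 1447 and 1445. The cause of these shifts was not tested. The replicate block uses numbers for which no pairing was seen. With it, 6 members rose and 3 fell in sciatic nerve relative to brain. In optic nerve against brain 1 rose and 3 fell, and in sciatic relative to optic nerve 6 rose and 2 fell. Depth limits Plxnd1 in brain, where 3 counts correspond to 0.0265 CPM.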

Other observations

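For each member, the tested genes whose log2 CPM was most correlated with it over the 13 libraries are given as a description, since libraries of 1 tissue share that tissue. Sema4a was most like Cd209f, a lectin gene (Pearson r = 0.988), and Serpinb6a, a protease inhibitor gene (0.986). Cd209f averaged 1147 CPM in sciatic nerve and 1.03 CPM in optic nerve. Sema4d was most like Rps6ka1 (0.995) and Golm1 (0.991), and Golm1 averaged 30.1 CPM in sciatic nerve, 896 CPM in the optic nerve and 1443 CPM in brain. Plxnd1 was most like Cd4 (0.991), the T helper cell receptor gene that macrophages can also express, and Bcam (0.984), both with no counts in brain. Cd4 averaged 11.8 CPM in sciatic nerve and 0.501 CPM in the optic nerve, while summed markers of T and NK cells reached at most 1.44 CPM in any sciatic nerve library and Cd3e was at 0 there. Nrp1 was most like Ap2a2 (0.980) and Ms4a6b (0.978), and Nrp2 was most like Sptan1 (0.939) and Fam20a (0.926). Plxna1 was most like Stard8 (0.951) and St8sia4 (0.935), and Plxnc1 most like Tpm1 (0.934) and Gm26908 (0.933). Plxnb2 was most like Myadml2 (0.982) and Zfp760 (0.967), and Sema4b most like Hs2st1 (0.978) and Ncoa2 (0.952).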
